A study of Mus musculus with 12 samples.

Results

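RNA levels of beta-catenin (Ctnnb1), of the proteins that destroy it and of the proteins that act with it in the nucleus were followed in the forebrain of newborn mice. The 10 genes were Ctnnb1, Apc, Axin1, Gsk3b, Csnk1a1, Btrc, Tcf7l1, Tcf7l2, Bcl9 and Pygo2, chosen by name for their roles. Each had exactly 1 probe set of its own on the array, and all 10 were among the 14195 genes tested, of 19938 genes with a probe set of their own. The 12 arrays came from 4 genotypes at postnatal day 0, with 3 biological replicates each. GBS samples were labelled as tumours and had the genotype hGFAP-cre::Ctnnb1(ex3)Fl/+SmoM2Fl/+. GS forebrains were hGFAP-cre::SmoM2Fl/+ and GB forebrains were hGFAP-cre::Ctnnb1(ex3)Fl/+. Control forebrains were Ctnnb1(ex3)Fl/+SmoM2Fl/+ without the Cre, so they carried both floxed alleles unrecombined. The human GFAP promoter drives the Cre in radial glia and thus in their descendants, so cells outside that lineage keep the unrecombined alleles. SmoM2 encodes an always-active Smoothened, which turns on the sonic hedgehog pathway. Removal of exon 3 of Ctnnb1 leaves a beta-catenin without the residues that mark it for destruction.

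In the absence of a WNT signal, beta-catenin is held by the scaffolds Axin and Apc, phosphorylated by casein kinase 1 and then by glycogen synthase kinase 3, ubiquitylated through the F-box protein beta-TrCP and degraded. When that step fails, beta-catenin enters the nucleus, binds TCF and LEF proteins and recruits Bcl9 and Pygopus to turn on target genes. Beta-catenin also links cadherins to the actin cytoskeleton at adherens junctions. In the developing forebrain the pathway is known for patterning the dorsal side and for keeping radial glia dividing. These steps are steps of proteins, while the arrays measured RNA.

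Levels are given on the log2 scale of the array, where a difference of 1 is a 2-fold change, and the level of 1 probe set was not set against that of another. A gene was called where limma's Benjamini-Hochberg adjusted p over all 14195 genes was under 0.05. The array medians lay between 6.52 and 6.69. GB replicate 2, GS replicate 3 and Control replicate 3 deviated from their genotypes together, with correlations of their deviations across genes between 0.739 and 0.833, and results are therefore also given without these 3 arrays. That fit keeps 2 arrays each in GS, GB and Control. The arrays left out were chosen for their deviations in these same data, so that choice itself lowers the residual spread. Calls in that fit are therefore a description and not a separate test. The median level of 1190 olfactory and vomeronasal receptor genes, which forebrain is not known to use, was 4.84 to 4.92 in GBS and 5.12 to 5.23 in Control, with no overlap. It was 5.02 to 5.35 in GB, also without overlap with GBS. A fit with this level as a covariate cannot separate it from genotype in GBS minus Control or GBS minus GB. Its changes in these comparisons are extrapolations. Xist was at least 8.66 in GS replicates 2 and 3 and GB replicates 2 and 3 and at most 5.02 on the other arrays. All GBS and Control arrays were thus low, and GS and GB were mixed. Comparisons of GBS or Control with GS or GB therefore also differ in Xist, and its part in them was not tested. Of 9 forebrain identity genes with a probe set, 7 lay above the array median on all 3 GBS arrays and 8 on all 3 Control arrays. In GBS minus Control 3 of them were called higher and 3 lower, against 11.0% and 4.35% of all genes. In these bulk samples a lower share of cells of a type and less RNA per cell cannot be told apart.

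Ctnnb1 was higher in GBS than in Control and in GB. Its level was 8.86, 9.19 and 8.93 in GBS, 8.85, 8.76 and 8.41 in GS, 8.18, 7.56 and 8.35 in GB and 8.13, 8.22 and 7.89 in Control. All 3 GBS arrays lay above all other arrays, all 3 GS arrays lay above all Control and GB arrays, and GB and Control overlapped. The means were 8.99 ± 0.173 in GBS, 8.67 ± 0.230 in GS, 8.03 ± 0.418 in GB and 8.08 ± 0.171 in Control (SD, n = 3 each). GBS exceeded Control by 0.91 ± 0.199 (SE; 95% interval 0.47 to 1.35), a 1.88-fold difference, at limma's adjusted p = 0.0138. GBS exceeded GB by 0.96 ± 0.199 (SE; 95% interval 0.52 to 1.40) at limma's adjusted p = 0.0143. The call against Control was lost with the receptor gene level as a covariate (0.37, adjusted p = 0.0635), without GBS replicate 2 (0.82, adjusted p = 0.071) and without Control replicate 3 (0.82, adjusted p = 0.065). The call against GB was lost when only these groups were fitted (adjusted p = 0.104) and without GBS replicate 2 (adjusted p = 0.074). The part of the receptor gene level in these differences was not tested beyond that covariate, which did not overlap between GBS and either group.

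The other differences of Ctnnb1 did not pass the test. GS exceeded Control by 0.60 ± 0.199 (SE) at an unadjusted p of 0.0123 and limma's adjusted p of 0.645. On the other 9 arrays this difference was 0.63 and was called, at limma's adjusted p = 0.0145. The choice of the arrays left out lowered the spread in that fit. GB differed from Control by -0.050 ± 0.199 (SE; 95% interval -0.49 to 0.39). The exon 3 allele alone therefore came with no called difference in the RNA of its own gene, and the interval covers differences of either sign. GBS exceeded GS by 0.32 (adjusted p = 0.447), and the interaction, the difference between GBS minus GS and GB minus Control, was 0.37 (adjusted p = 0.788). The value sums RNA from both alleles and from recombined and unrecombined cells, and where the probes lie relative to exon 3 was not analysed here.

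**Figure D1:**
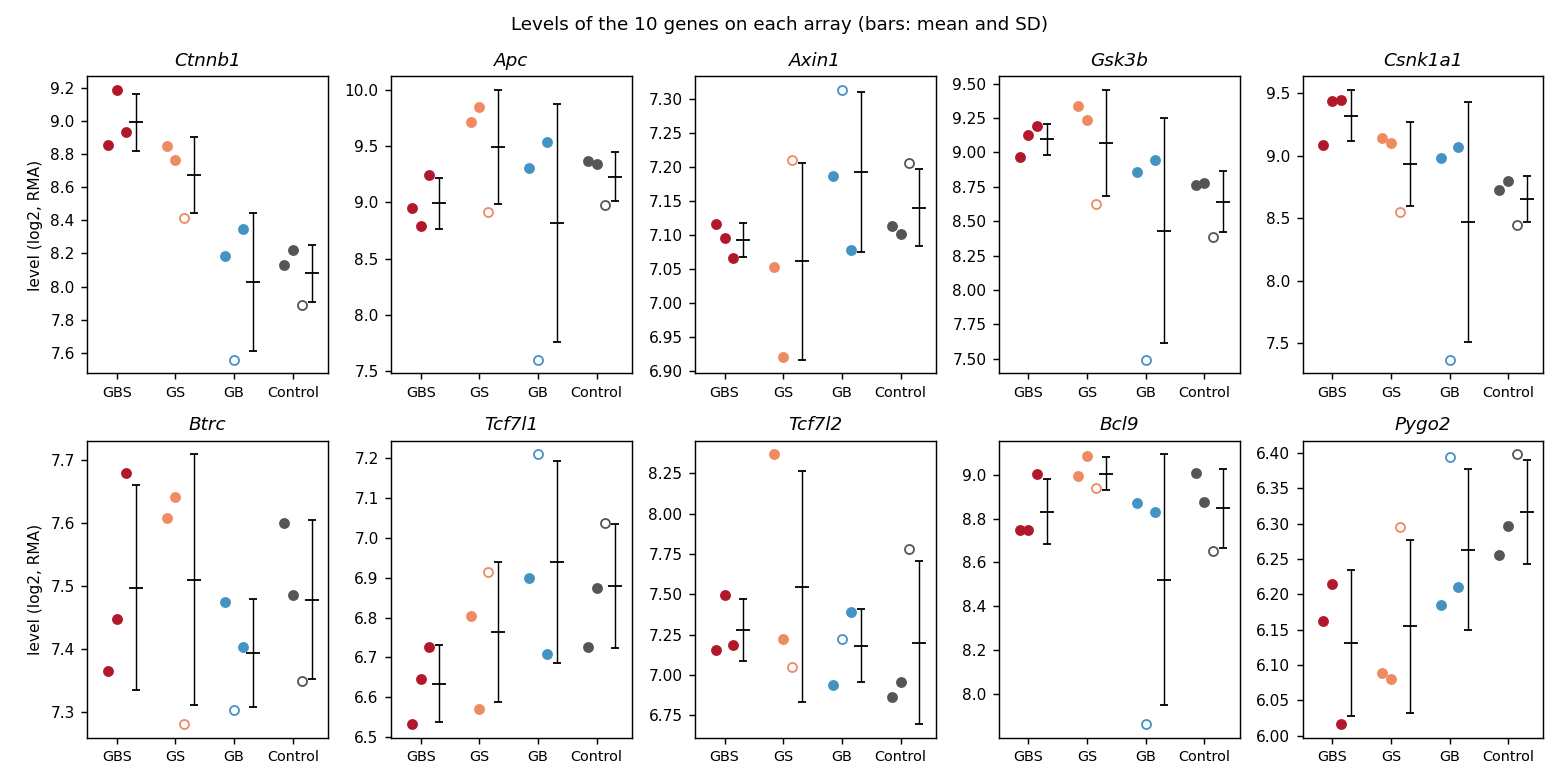
Level of each of the 10 genes on each array (vertical axes, log2 RMA values, scaled separately for each gene) in GBS, GS, GB and Control (horizontal axes). Points are arrays in replicate order, open points are GB replicate 2, GS replicate 3 and Control replicate 3, and bars are the mean and SD of 3 arrays; the 3 GBS arrays of Ctnnb1, at 8.86 to 9.19, lie above all other arrays of that gene.

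The sequence before the start of Ctnnb1 is shown with those of the genes for which a TCF motif was found, since TCF and LEF proteins bind such motifs. Sequences are from RefSeq, assembly GRCm38.p6, and 6 of the 10 genes had an entry. The 250 bases before each annotated start were searched on both strands for CTTTGAA, then for CTTTGAT, then for CTTTGTA and then for CTTTGTT. Matches are in capitals, and positions count back from the start. Of the 6 genes only Tcf7l2 had a match, CTTTGTT at -14 of the last of its 2 windows. The window of its first annotated start, chr19:55741560-55741809, had no match and is not shown. Ctnnb1 had no match in its 2 windows, of which the first is shown. Lef1, a gene outside the 10 that is described with the partners, had CTTTGTA on the opposite strand at -147 of the last of its 4 windows. Axin2, also outside the 10, had no match in its 1 window.
Ctnnb1, chr9:120933150-120933399, plus strand, no match: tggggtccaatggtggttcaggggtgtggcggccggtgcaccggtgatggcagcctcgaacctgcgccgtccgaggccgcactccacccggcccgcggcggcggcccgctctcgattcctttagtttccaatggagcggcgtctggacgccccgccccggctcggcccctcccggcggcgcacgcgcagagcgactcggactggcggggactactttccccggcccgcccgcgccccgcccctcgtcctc
Tcf7l2, chr19:55895071-55895320, plus strand: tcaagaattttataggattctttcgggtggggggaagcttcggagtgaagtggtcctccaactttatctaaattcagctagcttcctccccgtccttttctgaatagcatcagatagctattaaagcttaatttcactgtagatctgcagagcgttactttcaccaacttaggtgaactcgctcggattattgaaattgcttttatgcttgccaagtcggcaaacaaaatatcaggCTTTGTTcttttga
Lef1, chr3:131156044-131156293, plus strand: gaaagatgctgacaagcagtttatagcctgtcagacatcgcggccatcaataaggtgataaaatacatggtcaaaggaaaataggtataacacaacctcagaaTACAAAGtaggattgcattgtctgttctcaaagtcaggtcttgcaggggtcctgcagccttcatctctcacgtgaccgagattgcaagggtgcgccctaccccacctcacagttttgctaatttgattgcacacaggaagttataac
A match was present in 4872 of 32841 windows of this length (14.8%), or in 4525 of 27018 genes (16.7%). A match is a description of the letters in the window and not evidence of binding.

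The kinases of the destruction complex, Csnk1a1 and Gsk3b, had higher means in GBS than in Control, but neither passed the test. Csnk1a1, casein kinase 1 alpha, which places the first phosphate on beta-catenin, was at 9.08, 9.43 and 9.44 in GBS, 9.14, 9.10 and 8.55 in GS, 8.98, 7.37 and 9.07 in GB and 8.72, 8.80 and 8.45 in Control. The GBS arrays lay above all Control and GB arrays, and GB replicate 2 lay far below every other array. GBS minus Control was 0.66 ± 0.373 (SE; 95% interval -0.16 to 1.49) at limma's adjusted p = 0.190, and GBS minus GB was 0.85 at adjusted p = 0.112. This SE comes from a spread shared by all genotypes, including GB. The SD of Csnk1a1 was 0.204 in GBS and 0.183 in Control, against 0.957 in GB. Gsk3b, the kinase that adds the following phosphates, was at 8.97, 9.12 and 9.19 in GBS, 9.34, 9.24 and 8.62 in GS, 8.86, 7.49 and 8.95 in GB and 8.77, 8.78 and 8.38 in Control. The GBS arrays again lay above those of Control and GB, and the low array of each other genotype was one of the 3 that deviated together. The difference between GBS and Control was 0.45 ± 0.335 (SE; 95% interval -0.29 to 1.19) at limma's adjusted p = 0.293. The SD of Gsk3b was 0.114 in GBS and 0.224 in Control, against 0.817 in GB.

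With the 3 arrays left out, both kinases were called in GBS minus Control, with 0.56 for Csnk1a1 (limma's adjusted p = 0.00314) and 0.32 for Gsk3b (adjusted p = 0.0168). Leaving out arrays chosen for their deviation lowered the spread, and the SE of Gsk3b in this comparison fell from 0.335 to 0.090. The calls of this fit are therefore a description only. In the same fit Gsk3b was called in GS minus Control, at 0.52 (adjusted p = 0.0149). Csnk1a1 was also called in GBS minus Control without GB replicate 2 alone (0.66, limma's adjusted p = 0.0107). In that fit 3268 of all 14195 genes were called higher and 2865 lower. Both kinases were called when only GBS and Control were fitted, where 46.2% of all genes were called. With the receptor gene level as a covariate the difference between GBS and Control turned to -0.35 for Csnk1a1 (adjusted p = 0.421) and to -0.49 for Gsk3b (adjusted p = 0.114).

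Neither scaffold of the complex passed the test with all 12 arrays. Apc, the large scaffold mutated in human colon cancer, was at 8.95, 8.79 and 9.24 in GBS, 9.72, 9.85 and 8.91 in GS, 9.30, 7.60 and 9.54 in GB and 9.37, 9.34 and 8.98 in Control. The groups overlapped in every comparison, and the SD of 1.06 in GB came with the low value of replicate 2. GBS minus Control was -0.24 ± 0.429 (SE; 95% interval -1.18 to 0.71) at limma's adjusted p = 0.661, and GBS minus GS was -0.50 at adjusted p = 0.594. Without the 3 arrays, Apc was called lower in GBS than in each of the other genotypes, by -0.36 against Control (adjusted p = 0.0421), -0.79 against GS (adjusted p = 0.00209) and -0.43 against GB (adjusted p = 0.0331). The difference against GB was 0.18 with all 12 arrays, so its sign turned. With the 3 arrays left out, the interaction for Apc was -0.86 (adjusted p = 0.0423). In that fit the SE of Apc in GBS minus Control fell from 0.429 to 0.128, lowered by the choice of arrays. The Apc calls in it are therefore a description only. Axin1, the scaffold that limits the complex, stayed between 6.92 and 7.31 on all 12 arrays and differed by -0.048 ± 0.0958 (SE) in GBS minus Control (adjusted p = 0.692).

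Btrc, the F-box protein beta-TrCP that recognises phosphorylated beta-catenin, lay between 7.28 and 7.68 on all 12 arrays. Btrc differed by 0.019 ± 0.124 (SE; 95% interval -0.25 to 0.29) in GBS minus Control at limma's adjusted p = 0.906. The genotypes overlapped, and no comparison of Btrc passed the test with all 12 arrays.

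The TCF genes of the set did not differ between genotypes beyond their spread. Tcf7l1, a TCF known mainly as a repressor, was at 6.53, 6.64 and 6.73 in GBS, 6.80, 6.57 and 6.91 in GS, 6.90, 7.21 and 6.71 in GB and 6.73, 6.87 and 7.04 in Control. GBS was low, with its highest array just above the lowest of Control. GBS minus Control was -0.25 ± 0.142 (SE; 95% interval -0.56 to 0.068) at limma's adjusted p = 0.201, and GBS minus GB was -0.30 at adjusted p = 0.126.

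Tcf7l2, a TCF that in mouse brain is known from the thalamus, was at 7.16, 7.50 and 7.18 in GBS, 8.37, 7.22 and 7.05 in GS, 6.94, 7.22 and 7.39 in GB and 6.86, 6.96 and 7.78 in Control. GS replicate 1 and Control replicate 3 stood above all other arrays. Control replicate 3 was 0.87 above the mean of the other Control arrays, a deviation as high as or higher than that of 99.951% of the tested genes on that array. GBS minus Control was 0.078 ± 0.330 (SE; 95% interval -0.65 to 0.81) at limma's adjusted p = 0.854.

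The cofactors that carry beta-catenin's activating role gave no call either. Bcl9, which bridges beta-catenin and Pygopus, was at 8.75, 8.75 and 9.00 in GBS, 8.99, 9.08 and 8.94 in GS, 8.87, 7.86 and 8.83 in GB and 9.01, 8.88 and 8.65 in Control. All groups overlapped apart from GS, whose arrays lay above those of GB, and GB replicate 2 was the lowest array. Bcl9 differed by -0.014 ± 0.227 (SE) in GBS minus Control at limma's adjusted p = 0.962. Pygo2, a Pygopus protein that reads methylated histone H3, was at 6.16, 6.22 and 6.02 in GBS, 6.09, 6.08 and 6.30 in GS, 6.19, 6.39 and 6.21 in GB and 6.26, 6.30 and 6.40 in Control. The 3 GBS arrays lay below the 3 Control arrays, by a small margin. GBS minus Control was -0.19 ± 0.0991 (SE; 95% interval -0.40 to 0.033) at limma's adjusted p = 0.174.

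Counted over the 10 genes, 1 was called in GBS minus Control (Ctnnb1, higher), where 15.3% of all tested genes were called and 11.0% were called higher. In GBS minus GB 1 was called (Ctnnb1, higher), against 12.7% of all genes and 9.60% higher. None was called in GS minus Control (0.0211% of all genes), GB minus Control (0%), GBS minus GS (5.07%) or the interaction (0.331%). At an unadjusted p under 0.05, limma counted 839 of all genes in GS minus Control and 156 in GB minus Control. The arrays of the groups did not overlap for 4 of the 10 genes in GBS minus Control (64.6% of all genes), 1 in GS minus Control (17.5%), 0 in GB minus Control (4.10%), 1 in GBS minus GS (28.9%) and 3 in GBS minus GB (47.9%). The median change of the 10 genes was 0.0025 in GBS minus Control, against -0.0998 over all genes, and 0.14 in GBS minus GB, against -0.11. The comparisons of GBS, GS and GB with Control share the Control arrays.

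Without the 3 arrays, 4 of the 10 genes were called in GBS minus Control, against 42.4% of all genes, and these were Ctnnb1 (0.82, adjusted p = 0.000338), Csnk1a1, Gsk3b and Apc. In GS minus Control 2 were called (12.1% of all genes), in GBS minus GS 1 (17.0%), in GBS minus GB 2 (24.2%), in the interaction 1 (2.91%) and in GB minus Control 0 (0.183%). In GBS minus GB, Ctnnb1 was then at 0.73 (adjusted p = 0.00169). All counts without the 3 arrays come from a fit whose spread was lowered by the choice of arrays. With the receptor gene level as a covariate, 1 of the 10 genes was called in GBS minus Control, Apc at -1.40 (adjusted p = 0.0100), against 12.9% of all genes. Without the covariate the Apc difference was -0.24, and the covariate did not overlap between GBS and Control.

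**Figure D2:**
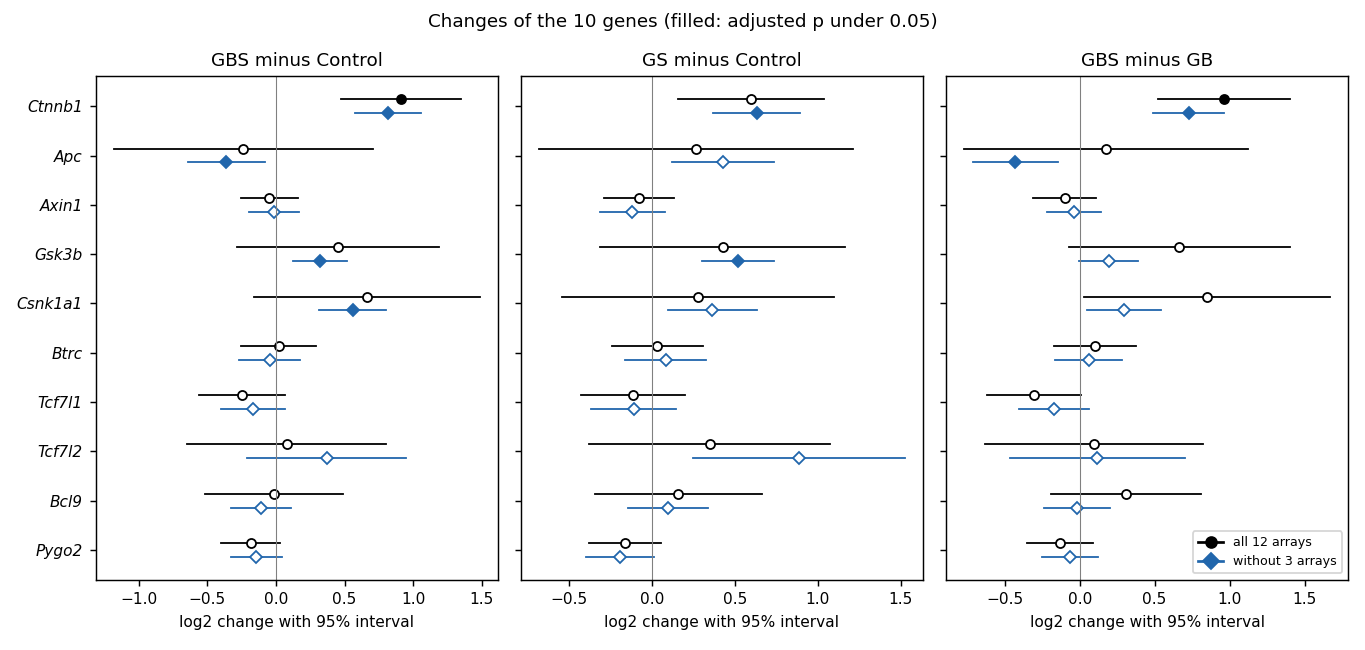
Log2 change of each of the 10 genes (vertical axis) in GBS minus Control, GS minus Control and GBS minus GB (horizontal axes, log2, with 95% intervals). Circles are the fit to all 12 arrays, diamonds the fit without the 3 arrays that deviated together, and filled symbols passed the test; Ctnnb1 is filled with all 12 arrays in GBS minus Control (0.91) and GBS minus GB (0.96).

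The spread within genotypes was uneven over the 10 genes. On GB replicate 2, Apc was 1.82, Csnk1a1 1.66 and Gsk3b 1.41 lower than the mean of the other GB arrays, so 3 of the 10 genes were lower there by at least 1, against 11.8% of all tested genes. Bcl9 was 0.99 lower and Ctnnb1 0.71 lower, while Tcf7l1 was 0.41 higher, Pygo2 0.20 higher and Axin1 0.18 higher. GS replicate 3 was lower than the mean of the other GS arrays in 7 of the 10 genes, by up to 0.87 for Apc, and Control replicate 3 in 6. Over all tested genes the median of these deviations was 0.034 on GS replicate 3 and 0.012 on Control replicate 3. The receptor gene median was 5.35 on GB replicate 2, 5.23 on GS replicate 3 and 5.23 on Control replicate 3, the highest array of each genotype. The part of RNA quality or tissue content in these deviations was not tested.

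**Figure D3:**
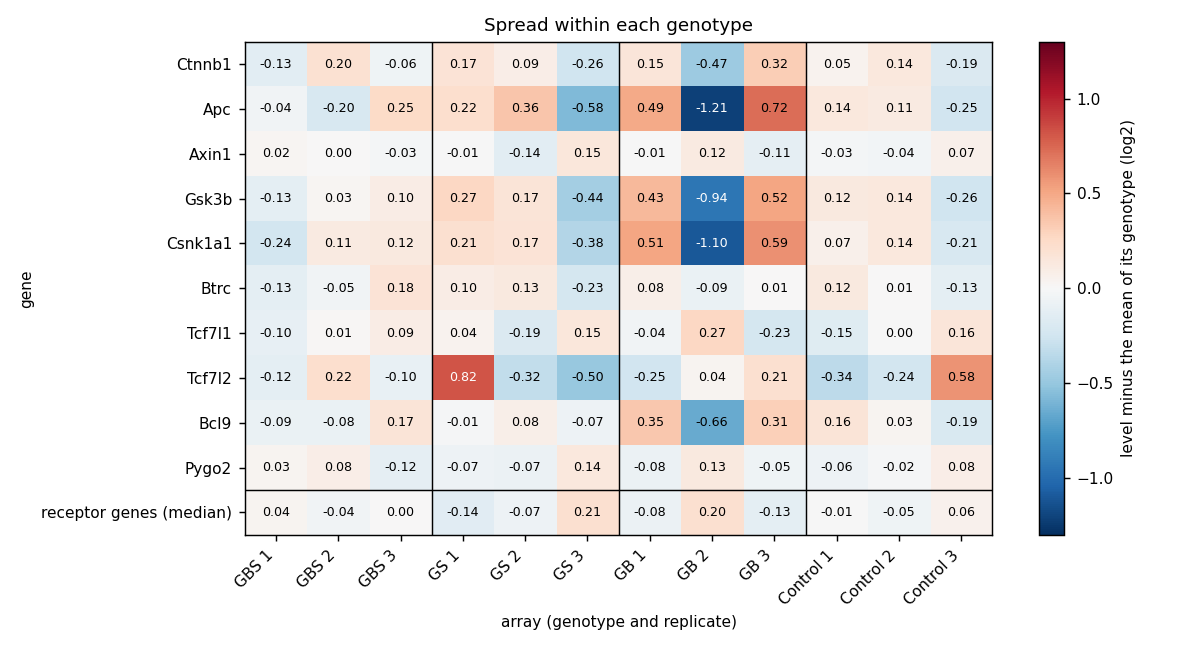
Level of each of the 10 genes, and the median of the receptor genes, minus the mean of its genotype (log2, colour and printed value) on each of the 12 arrays. GB replicate 2 stands out with -1.21 for Apc, -1.10 for Csnk1a1 and -0.94 for Gsk3b, and its receptor gene median is 0.20 above the mean of its genotype.

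Across the 12 arrays, the tested genes whose levels followed Ctnnb1 most closely were Fads1 (Pearson r = 0.991), Magt1 (0.989), Pak2 (0.988) and Pdia6 (0.988). For Tcf7l1 they were Olfr140 (0.963), Dvl1 (0.954), Krt73 (0.946) and Mapk13 (0.946), and for Tcf7l2 Htr2b (0.857), Zfp319 (0.809), Atg13 (0.786) and Auh (0.768). The 12 arrays fall into 4 genotypes that share these levels, so the values describe likeness only. An olfactory receptor gene led the list of Tcf7l1, whose level also followed the 3 deviating arrays upward.

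The genes that work with these 10 were read from 3 lists. Of 30 regulators and further parts of the destruction complex, 3 were called higher and 0 lower in GBS minus Control, where 11.0% of all genes were called higher and 4.35% lower, with a median change of 0.28 against -0.0998 over all genes. Axin2, a scaffold that is itself a WNT target, was at 8.66, 9.04 and 8.85 in GBS, 7.15, 7.16 and 7.01 in GS, 7.88, 7.58 and 7.95 in GB and 6.99, 7.04 and 7.18 in Control. The GBS arrays lay above all others, the GB arrays above all GS and Control arrays, and GS and Control overlapped. Axin2 rose by 1.78 ± 0.124 (SE) in GBS minus Control at limma's adjusted p = 2.42e-05. GB minus Control was 0.73 (95% interval 0.46 to 1.01) at limma's unadjusted p of 0.000104 and adjusted p of 0.494. It was thus not called, in a comparison where no gene was called. Ppp2r5d, a regulatory subunit of the phosphatase PP2A, rose by 0.49 (adjusted p = 0.0232) and Csnk1g1, a casein kinase 1 gamma, by 0.63 (adjusted p = 0.0321). The Ppp2r5d call was lost without GBS replicate 2 or 3 or Control replicate 1 or 3, and that of Csnk1g1 without GBS replicate 2 or 3 or any Control array, with adjusted p-values over all alternatives of up to 0.204 and 0.339.

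Of 24 nuclear partners tested, 5 were called higher and 1 lower in GBS minus Control (11.0% of all genes higher and 4.35% lower), with a median change of 0.22 (all genes, -0.0998). Lef1, which binds the same sites as the TCF proteins and is a WNT target, was at 9.59, 10.26 and 9.66 in GBS, 7.43, 7.53 and 7.37 in GS, 8.41, 8.33 and 8.44 in GB and 7.43, 7.43 and 7.85 in Control. The order of the groups was that of Axin2. Lef1 rose by 2.27 ± 0.170 (SE), or 4.81-fold, at limma's adjusted p = 3.34e-05. GB minus Control was 0.82 (95% interval 0.45 to 1.20) at limma's unadjusted p of 0.000546 and adjusted p of 0.909, and was not called. Tle1, a Groucho corepressor, rose by 1.10 (adjusted p = 0.00188), the kinase Hipk2 by 0.93 (adjusted p = 0.0152) and Tbl1x, a subunit of a corepressor complex, by 0.79 (adjusted p = 0.0325). Med12, a Mediator subunit, rose by 0.42 (adjusted p = 0.0357), and Tnik, a kinase that binds TCF proteins, fell by 0.81 (adjusted p = 0.0401). Both were chosen after their values were seen. The other nuclear partners named here, apart from Lef1, were named for their low adjusted p. The Hipk2 call was lost without GBS replicate 2 or Control replicate 3. The Tbl1x call was lost without GBS replicate 2 or 3 or any Control array, and the Med12 call without these or GS replicate 2. The Tnik call was lost without GBS replicate 1 or 2, GS replicate 2, GB replicate 1 or any Control array. Over all alternatives, the adjusted p reached 0.0976 for Hipk2, 0.376 for Tbl1x, 0.297 for Med12 and 0.176 for Tnik. Tcf7 was not analysed here.

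Of 10 adherens junction partners, 4 were called higher and 0 lower in GBS minus Control, against 11.0% and 4.35% of all genes, with a median change of 0.49 (all genes, -0.0998). Cdh1, E-cadherin, was at 8.67, 9.59 and 8.21 in GBS, 6.43, 6.40 and 6.68 in GS, 6.94, 6.94 and 6.87 in GB and 6.54, 6.55 and 6.65 in Control, so the GBS arrays lay above all others. Cdh1 rose by 2.24 ± 0.262 (SE), or 4.74-fold, at limma's adjusted p = 0.000491. Ctnna1, the alpha-catenin that binds beta-catenin to actin, rose by 0.84 (adjusted p = 0.00249), Ctnnd1, or p120 catenin, by 0.91 (adjusted p = 0.0181) and Vcl, vinculin, by 0.40 (adjusted p = 0.0337). The Ctnnd1 call was lost without GBS replicate 2 or 3 or Control replicate 1 or 3, and the Vcl call without these or GS replicate 2. Over all alternatives the adjusted p reached 0.0831 for Ctnnd1 and 0.246 for Vcl.

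In GBS minus GS, 1 complex gene, 2 nuclear partners and 2 junction partners were called higher and 1 nuclear partner lower, where 3.56% of all genes were called higher and 1.51% lower. These were Axin2 (1.74), Lef1 (2.39), Tle1 (0.80), Cdh1 (2.32), Ctnna1 (0.55) and, lower, Tnik (-1.003). The Tle1 call was lost without GBS replicate 2 or GS replicate 2, and that of Ctnna1 without GBS replicate 2 or 3, GS replicate 1 or 2, GB replicate 1 or any Control array, with quantile normalization and with only GBS and GS fitted. The Tnik call was lost without GBS replicate 1 or 2, GS replicate 1 or 2, or Control replicate 1 or 2, and with the arrays centred on their medians. Over all alternatives the adjusted p reached 0.0859 for Tle1, 0.150 for Ctnna1 and 0.151 for Tnik. In GBS minus GB, 3, 5 and 3 genes were called higher and 0 lower, where 9.60% of all genes were called higher and 3.12% lower. The 2 with the lowest adjusted p in each list were Axin2 (1.04) and Csnk1g1 (0.67), Lef1 (1.44) and Hipk2 (1.15), and Cdh1 (1.91) and Ctnna1 (0.68). With only GBS and GB fitted, Lef1 alone of these 6 kept its call. The Csnk1g1 call was also lost without GBS replicate 2 or 3 or GB replicate 2, with quantile normalization and with the receptor gene level as a covariate. Its adjusted p in GBS minus GB reached 0.172 over all alternatives. No list gene was called in GS minus Control (0.0211% of all genes) or GB minus Control (0%).

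Without the 3 arrays, the lists gave 13 higher and 0 lower, 10 higher and 1 lower, and 6 higher and 2 lower in GBS minus Control, where 23.5% of all genes were called higher and 18.9% lower. With the receptor gene level as a covariate they gave 1 and 0, 2 and 3, and 2 and 2, against 5.57% and 7.37% of all genes, and the calls of Ppp2r5d, Csnk1g1, Hipk2, Tbl1x, Med12, Ctnnd1 and Vcl were lost. Quantile normalization ended the calls of Ppp2r5d, Csnk1g1, Tbl1x and Med12, and centring the arrays on their medians that of Tnik. Axin2, Lef1, Tle1, Cdh1 and Ctnna1 were called in GBS minus Control under all 24 alternatives. Of 15 tested WNT/beta-catenin targets, a list that also holds Axin2 and Lef1, 11 were called higher and 0 lower in GBS minus Control, with a median change of 0.93, against 11.0% and 4.35% of all genes and a median of -0.0998. Of 9 tested proliferation genes 8 were called higher (11.0% of all genes), their mean level being 8.44 to 9.24 in GBS and 6.85 to 7.07 in Control, and of 10 neuronal genes 2 were called lower (4.35% of all genes), at 8.31 to 9.09 in GBS and 9.12 to 9.47 in Control. The part of these shifts in cell makeup in the changes of the partners was not tested.

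**Figure D4:**
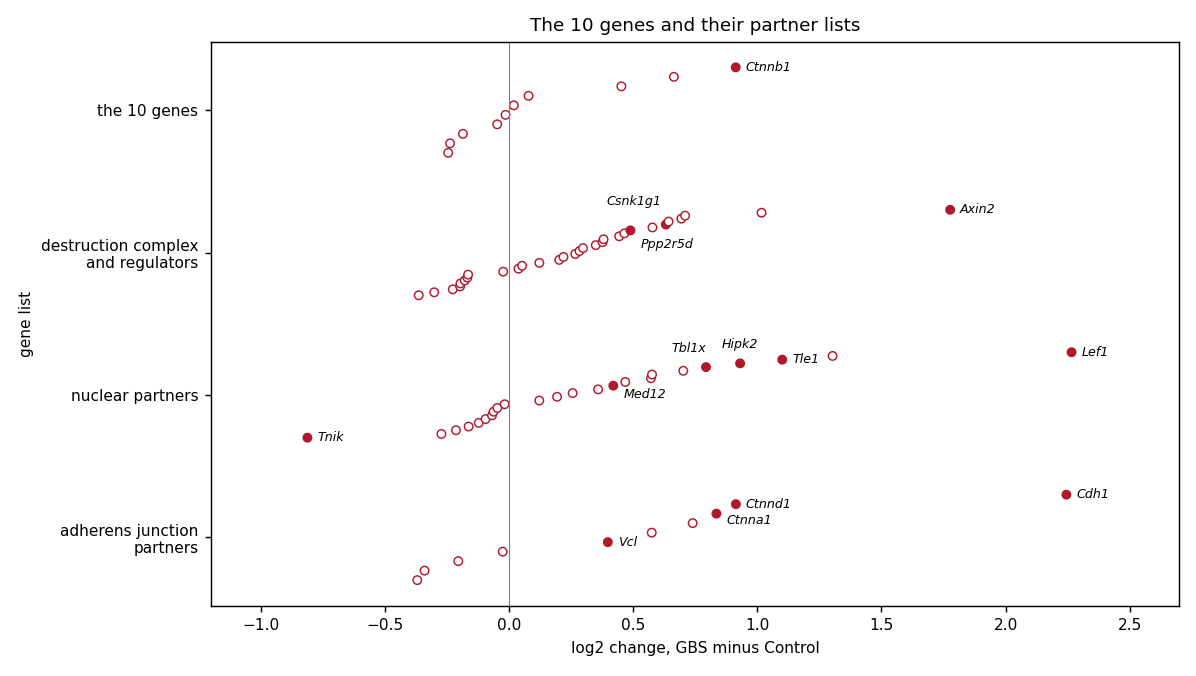
Log2 change in GBS minus Control (horizontal axis) of the 10 genes and of the tested genes of the 3 partner lists (rows, ordered by change within a row). Filled points passed the test and are named; Lef1 (2.27), Cdh1 (2.24) and Axin2 (1.78) lie furthest to the right and Tnik (-0.81) furthest to the left.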

How the data were processed

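RNA from 12 newborn mouse forebrain samples was measured on Affymetrix arrays. Per the submitters' processing notes, the authors made the deposited log2 values with RMA in Affymetrix Expression Console; versions and settings were not stated there. RMA corrects background, normalizes arrays against each other and summarises probes, which compresses changes of dim genes. Of 35556 probe sets, 21789 had 1 gene symbol in the platform annotation, and 21698 of these matched RefSeq GRCm38.p6 by gene identifier. The probe set with the highest mean was kept for each gene, and genes above the 40th percentile of their array in at least 3 of 12 arrays were tested. A linear model with 1 mean for each genotype was fitted to the 12 arrays with limma 3.58.1 (lmFit, eBayes) in R 4.3.3, two-sided, with Benjamini-Hochberg adjustment over 14195 genes. It had 8 residual and 2.9 prior degrees of freedom, and was tested on simulated data. The simulated noise was independent between arrays, with the same spread in all genotypes. That simulation therefore cannot show how the model behaves with arrays that deviate together. The smallest median absolute difference between any 2 arrays was 0.102. The labels call the replicates biological and do not say whether they are separate litters.

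The 10 genes, the lists and the 3 arrays left out in an alternative were chosen with earlier results of these data known. From each partner list, up to 4 called genes with the lowest adjusted p in GBS minus Control and up to 2 in each other comparison were named, and Axin2 and Lef1 whatever their values. For Ctnnb1, Tcf7l1 and Tcf7l2 the 4 genes most correlated over the arrays were named, leaving out clone names and predicted genes. Alternatives covered the filter (none, or the 60th percentile), averaging of probe sets, quantile normalization or median centring, trended and robust variances, array weights, fitting the compared groups alone, a replicate block, the receptor gene level as a covariate, leaving out the 3 arrays, and leaving out each array in turn. The array weights of limma's default stopped before convergence; a second, gene-by-gene estimate was added after its calls were seen. The comparison of each probe set of a gene on its own was not run, since each of the 10 genes has 1.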

Additional observations from a re-analysis of the deposited data

Results flagged for a closer look

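In Lef1 and Axin2 the change that comes with the Ctnnb1 allele differed between samples with and without SmoM2. The interaction, the difference between GBS minus GS and GB minus Control, was 1.57 for Lef1 (limma's adjusted p = 0.0261) and 1.01 for Axin2 (adjusted p = 0.0421). For Lef1, GBS minus GS was 2.39 and GB minus Control 0.82, and for Axin2 they were 1.74 and 0.73. Lef1 also ran opposite ways for SmoM2: every GBS array lay above the mean of GB (mean difference 1.44), and every GS array lay below the mean of Control (-0.13), which is the same difference of 1.57. The change in GS minus Control did not pass the test (adjusted p = 0.720), and its sign rests on Control replicate 3, which was at 7.85 against 7.43 and 7.43 on the other Control arrays: without it, GS minus Control was 0.011. The Lef1 interaction was called under 13 of 23 alternatives, and was lost when any GS or Control array, GB replicate 1 or GB replicate 3 was left out, with quantile normalization and with the replicate block (adjusted p over all alternatives up to 0.0868). The Axin2 interaction was called under 10 of 23, and was lost without GBS replicate 2 or 3, any GS or Control array, or GB replicate 1 or 3, with quantile normalization, with median centring and with the replicate block (up to 0.172). The difference itself stayed between 1.27 and 1.69 for Lef1 and between 0.79 and 1.11 for Axin2. The cause was not tested.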

How the results depend on the processing

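The count of called genes among the 10 in GBS minus Control was 1 with all 12 arrays, 4 with limma's default array weights (54.5% of all genes), 4 with gene-by-gene array weights (50.4%), 3 with only the groups compared (46.2%), 4 without the 3 arrays that deviated together (42.4%), and 0 to 2 with 1 array left out. The 2 came without GB replicate 2, where 3268 of all 14195 genes were called higher and 2865 lower. The 0 came without GBS replicate 2 (631 of all genes higher and 78 lower) and without Control replicate 3 (661 and 133). In GS minus Control the count was 0, 7 with the default array weights (58.4% of all genes), 5 with gene-by-gene weights (44.8%) and 2 without the 3 arrays (12.1%). In GBS minus GS it was 0, and 1 with the default array weights (25.7%), gene-by-gene weights (18.3%), the receptor gene level as a covariate (14.8%) and without the 3 arrays (17.0%). In GBS minus GB it was 1, 0 with only the groups compared (0.542%), 2 without the 3 arrays (24.2%), and 0 to 1 with 1 array left out. Among the latter, the 0 came without GBS replicate 2, where 396 of all genes were called higher and 25 lower. In the interaction the count was 0, and 1 with the default array weights (8.16%) and without the 3 arrays (2.91%). The default weights stopped with a warning that convergence was not reached, and the gene-by-gene weights were added after the calls of the default had been seen. The replicate block, a fit with the replicate number of the titles as a block, left 1 called gene in GBS minus Control and 1 in GBS minus GB, Ctnnb1 in both (adjusted p = 0.0389 and 0.0423), and moved all calls in GBS minus Control to 993 higher and 190 lower, against 1556 and 617 without it. Correlations of deviations between samples of the same number ran from -0.818 to 0.739, and 4 of 12 samples correlated best with their own number. These correlations include the 3 arrays that deviated together, so they cannot show whether the numbers pair the samples. The block also ended the calls of Csnk1g1, Tbl1x, Med12, Tnik and Vcl in GBS minus Control, of Csnk1g1 in GBS minus GB, of Ctnna1 and Tnik in GBS minus GS, and of Lef1 and Axin2 in the interaction. With the receptor gene level as a covariate, Apc was called in GBS minus Control (-1.40, adjusted p = 0.0100) and GBS minus GS (-1.07, adjusted p = 0.00923). Of the 60 changes of the 10 genes in 6 comparisons, 47 turned their sign under at least 1 alternative, 138 times in all. None of these 47 was called with all 12 arrays, and 1 of the turned values was called, that of Apc in GBS minus GB without the 3 arrays; the cause was not tested. With each array centred on its median, the sign turned in GBS minus Control to Axin1 0.025 and Bcl9 0.059, and in GBS minus GS to Btrc 0.017 and Pygo2 0.0064, and in the interaction to Axin1 0.011. With the receptor gene level as a covariate, the sign turned in GBS minus Control to Axin1 0.13, Gsk3b -0.49, Csnk1a1 -0.35, Btrc -0.20, Tcf7l1 0.025 and Tcf7l2 -0.26, and in GS minus Control to Apc -0.32, Axin1 0.012, Gsk3b -0.053, Csnk1a1 -0.24, Btrc -0.080, Tcf7l1 0.021 and Bcl9 -0.082, and in GBS minus GS to Gsk3b -0.44, Csnk1a1 -0.11, Tcf7l1 0.0043 and Pygo2 0.065, and in GBS minus GB to Apc -0.89, Axin1 0.064, Gsk3b -0.21, Csnk1a1 -0.083, Btrc -0.099, Tcf7l2 -0.21, Bcl9 -0.12 and Pygo2 0.031, and in the interaction to Axin1 0.052, Gsk3b -0.15, Btrc -0.019 and Bcl9 -0.043. With quantile normalization, the sign turned in GBS minus Control to Btrc -0.044, and in GS minus Control to Btrc -0.018, and in GBS minus GS to Gsk3b -0.12 and Pygo2 0.024, and in GBS minus GB to Apc -0.035. Without the 3 arrays, the sign turned in GBS minus Control to Btrc -0.046, and in GB minus Control to Ctnnb1 0.091, Apc 0.068, Gsk3b 0.13, Csnk1a1 0.26 and Tcf7l2 0.25, and in GBS minus GS to Gsk3b -0.19 and Pygo2 0.047, and in GBS minus GB to Apc -0.43 and Bcl9 -0.019, and in the interaction to Axin1 0.080, Gsk3b -0.33, Csnk1a1 -0.067, Btrc -0.023 and Bcl9 -0.11, and in GS minus Control to Lef1 0.049. With limma's default array weights, the sign turned in GB minus Control to Ctnnb1 0.12, Apc 0.058, Gsk3b 0.15, Csnk1a1 0.27 and Tcf7l2 0.12, and in GBS minus GS to Gsk3b -0.13, Tcf7l1 0.048 and Pygo2 0.011, and in GBS minus GB to Apc -0.29, and in the interaction to Axin1 0.13, Gsk3b -0.28, Csnk1a1 -0.057, Btrc -0.0033, Tcf7l1 0.034 and Bcl9 -0.10, and in GS minus Control to Lef1 0.028. With gene-by-gene array weights, the sign turned in GB minus Control to Ctnnb1 0.11, Apc 0.062, Gsk3b 0.16, Csnk1a1 0.28 and Tcf7l2 0.062, and in GBS minus GS to Gsk3b -0.14 and Pygo2 0.0098, and in GBS minus GB to Apc -0.30, and in the interaction to Axin1 0.096, Gsk3b -0.30, Csnk1a1 -0.064, Btrc -0.013 and Bcl9 -0.12. Leaving out 1 array at a time, the lowest and highest changes in GBS minus Control were Btrc -0.072 to 0.085, Tcf7l2 -0.091 to 0.37 and Bcl9 -0.11 to 0.067. Leaving out 1 array at a time, the lowest and highest changes in GS minus Control were Btrc -0.034 to 0.15, Tcf7l2 -0.063 to 0.64 and Lef1 -0.20 to 0.011. Leaving out 1 array at a time, the lowest and highest changes in GB minus Control were Ctnnb1 -0.21 to 0.19, Apc -0.78 to 0.19, Axin1 -0.0074 to 0.11, Gsk3b -0.47 to 0.26, Csnk1a1 -0.48 to 0.37, Tcf7l1 -0.076 to 0.17, Tcf7l2 -0.19 to 0.27 and Bcl9 -0.50 to 0.0049. Leaving out 1 array at a time, the lowest and highest changes in GBS minus GS were Axin1 -0.039 to 0.11, Gsk3b -0.19 to 0.16, Btrc -0.13 to 0.054, Tcf7l2 -0.52 to 0.14 and Pygo2 -0.065 to 0.047. Leaving out 1 array at a time, the lowest and highest changes in GBS minus GB were Apc -0.43 to 0.54, Tcf7l2 -0.026 to 0.20 and Bcl9 -0.019 to 0.49. Leaving out 1 array at a time, the lowest and highest changes in the interaction were Apc -0.69 to 0.28, Axin1 -0.092 to 0.053, Gsk3b -0.23 to 0.50, Btrc -0.043 to 0.14, Tcf7l2 -0.54 to 0.16, Bcl9 -0.18 to 0.33 and Pygo2 -0.011 to 0.10. The number of arrays, 3 for each genotype, limits the precision, and signal over background is not given in the deposited table.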
